A study of Mus musculus with 9 samples.

Results

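The expression of 31 genes of the synapse was followed in mouse brain RNA. They were chosen by name for roles at the vesicle, in membrane fusion, at the active zone, in scaffolds and in adhesion across the cleft. For each gene the row of the deposited table that carried its symbol alone was taken, and where several rows did so the one with the highest mean was used. This left 30 of the 31 genes, out of 19938 genes on the array. Vamp2 was not analysed here because no row carried its symbol alone. The 30 genes comprised 6 of the vesicle, 7 of fusion, 4 of the active zone, 7 of the scaffold and 6 of adhesion.

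Brain RNA was measured on 9 Affymetrix Mouse Gene 1.0 ST arrays, 3 in each of 3 groups. In the HPYD group, APP/PS1 transgenic mice on a C57/6J background received HPYD, a β-sheet breaker peptide, at 33 mg/mL in saline through the nose, 5 μL per day for 30 days. In the model group, APP/PS1 transgenic mice received the same volume of saline, and in the control group C57/6J mice of the same age did so. APP/PS1 mice were 8 months old when purchased, their line and the promoter of their transgenes are not named, and neither the labels nor the methods say that each array held a separate mouse. The p-values therefore cover only how far these samples lie apart within a group, which can be technical in origin.

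A nerve terminal holds vesicles filled with transmitter, which are docked at the active zone and fuse with the membrane when calcium enters. Fusion is driven by SNARE proteins, triggered by synaptotagmins and tuned by complexins. On the other side of the cleft, scaffold proteins hold receptors in place, and neurexins and neuroligins bind each other across it. Loss of synapses is a known feature of Alzheimer's disease.

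The labels were checked before the synaptic genes were compared. App encodes the amyloid precursor protein and had log2 signals of 12.98, 13.01 and 12.53 in HPYD 1, 2 and 3, of 12.99, 12.95 and 13.02 in Model 1, 2 and 3, and of 12.57, 12.56 and 12.62 in Control 1, 2 and 3. Cst7, a gene of microglia near plaques, had signals of 10.04, 9.46 and 6.21 on the HPYD arrays, of 9.36, 8.14 and 9.75 on the model arrays, and of 5.50, 5.95 and 6.40 on the control arrays. Xist, an RNA that coats the silenced X chromosome in female cells, had signals of 11.33, 11.47 and 5.22 on the HPYD arrays, of 11.18, 11.78 and 11.60 on the model arrays, and of 5.22, 5.20 and 5.69 on the control arrays. The array labelled HPYD 3 thus had levels of all 3 genes within or close to the range of the control arrays and went against its label, and it is given below both in and out of its group. Since Xist was high on all model arrays and low on all control arrays, sex and genotype cannot be told apart in the comparison of these 2 groups. Xist was also high in HPYD 1 and HPYD 2. Between these arrays and the control arrays, sex, genotype and peptide cannot be told apart either. The members Syn1, Syp, Nlgn3 and Cask lie on the X chromosome.

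Array medians over all probe sets lay between 6.695 and 6.819, and the correlation of any pair of arrays over the 19938 genes lay between 0.9699 and 0.9974. Signals are log2 values as deposited, so that a difference of 1 is a doubling, and they were compared only within a gene. The groups were compared with limma, a linear model fitted to all 19938 genes at once, with the Benjamini-Hochberg adjustment over all of them.

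None of the 30 synaptic genes passed an adjusted p of 0.05 in any comparison, and neither did any other gene on the array (0% of 19938 genes in each comparison). What the values did show was a division between single arrays. The arrays Model 2 and HPYD 3 were the 2 lowest of all 9 arrays for 21 of the 30 genes, among them Stx1a, Homer1, Lrrtm1, Shank1 and Syt1, against 14.1% of all genes on the array. They were the 2 highest for 3 genes, Syt2, Vamp1 and Cplx1, against 14.2% of all genes. The remaining 6 genes, Rims1, Pclo, Sv2a, Shank2, Nrxn2 and Nrxn3, followed neither pattern. This count was defined after the values had been seen and has no test. It takes no account of the margin, which was narrow in Snap25, Rab3a and Nlgn2, for example.

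**Figure D1:**
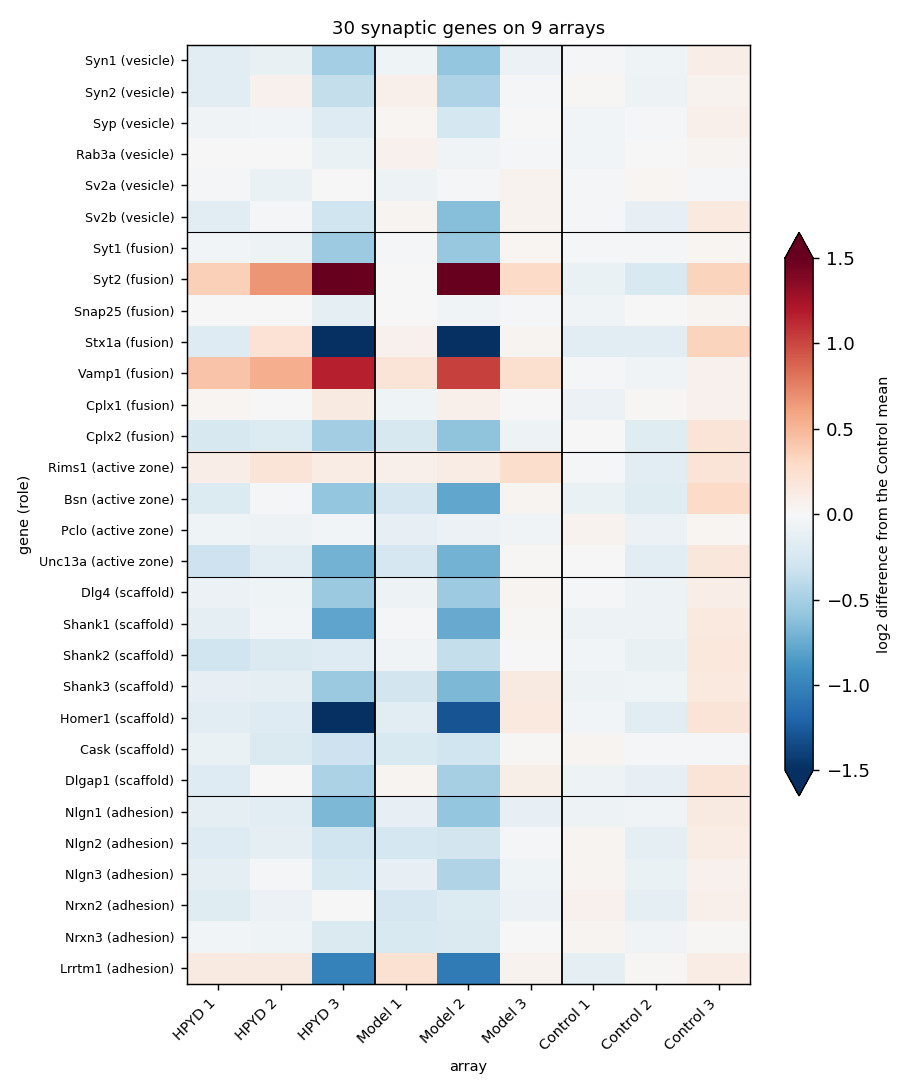
Log2 difference from the control mean (colour, cut at 1.5 in either direction) for 30 synaptic genes (rows, with their role) on the 9 arrays (columns; HPYD, model, control). The columns HPYD 3 and Model 2 are the darkest, with blue for 26 of 30 genes on each array and red for Syt2 and Vamp1.

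Relative to the control mean, the 30 genes had a median difference of -0.12, -0.052 and -0.31 in HPYD 1, 2 and 3, of -0.064, -0.45 and 0.021 in Model 1, 2 and 3, and of -0.029, -0.075 and 0.11 in Control 1, 2 and 3. The same median over all 19938 genes stayed between -0.018 and 0.026 on every array. Control 3 was the highest of the 9 arrays for 19 of the 30 genes, while Model 2 was the lowest for 14 and HPYD 3 for 8. The SD among HPYD arrays exceeded that among control arrays for 23 of 30 genes, and the SD among model arrays did so for 25 of 30. The share of all genes with a wider SD than in controls was not counted, so these counts have no background.

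For 4 genes, the stretch around the transcription start is shown first, from RefSeq (GRCm38.p6, 250 bases before to 50 after an annotated start, 5′ to 3′). They were chosen because Model 2 and HPYD 3 stood apart in them by the most upward (Syt2 and Vamp1) or downward (Stx1a and Homer1). Capitals mark GC boxes, GGGCGG or its complement CCGCCC, and half-sites of the cyclic AMP response element, TGACG or its complement CGTCA. The stretches are Syt2 at chr1:134646362-134646661, Vamp1 at chr6:125215331-125215630, Stx1a at chr5:135023232-135023531 and Homer1 at chr13:93303507-93303806, all on the plus strand.
Syt2: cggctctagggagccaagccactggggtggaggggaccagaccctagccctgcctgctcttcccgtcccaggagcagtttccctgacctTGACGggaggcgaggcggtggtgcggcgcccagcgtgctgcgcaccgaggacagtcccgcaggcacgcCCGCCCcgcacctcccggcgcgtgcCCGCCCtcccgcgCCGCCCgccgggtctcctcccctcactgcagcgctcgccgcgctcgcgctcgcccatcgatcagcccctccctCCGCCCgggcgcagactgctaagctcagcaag
Vamp1: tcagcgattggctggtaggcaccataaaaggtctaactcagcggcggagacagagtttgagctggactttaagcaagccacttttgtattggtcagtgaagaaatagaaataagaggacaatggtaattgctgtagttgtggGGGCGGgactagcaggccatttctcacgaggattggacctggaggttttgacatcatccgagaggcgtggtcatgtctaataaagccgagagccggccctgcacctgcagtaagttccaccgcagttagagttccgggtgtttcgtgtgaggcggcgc
Stx1a: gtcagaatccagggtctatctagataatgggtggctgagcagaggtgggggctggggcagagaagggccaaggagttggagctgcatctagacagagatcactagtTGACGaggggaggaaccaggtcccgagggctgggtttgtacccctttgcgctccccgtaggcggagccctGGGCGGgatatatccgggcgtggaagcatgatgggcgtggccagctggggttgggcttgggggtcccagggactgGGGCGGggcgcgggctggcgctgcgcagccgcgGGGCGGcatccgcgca
Homer1: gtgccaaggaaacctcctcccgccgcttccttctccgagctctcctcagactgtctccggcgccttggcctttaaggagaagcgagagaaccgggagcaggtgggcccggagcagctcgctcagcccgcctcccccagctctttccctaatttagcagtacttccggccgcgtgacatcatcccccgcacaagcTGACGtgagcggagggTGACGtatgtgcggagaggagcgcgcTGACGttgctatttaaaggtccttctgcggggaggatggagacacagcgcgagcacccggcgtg

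The Syt2 and Stx1a stretches held 4 and 3 GC boxes and 1 half-site each, Vamp1 held 1 GC box and no half-site, and Homer1 held 3 half-sites and no GC box. Syt2 and Homer1 each have another annotated start, which is not shown. The stretch around it held 2 GC boxes and no half-site in Syt2, and neither motif in Homer1. Promoters were given for 24 of the 30 genes, 38 in all since 10 genes have several. A GC box stood in 19 of these 38 (50%), against 35.7% of all 32851 promoters, and a half-site in 9 (23.7%), against 20.8%. The full cyclic AMP response element, TGACGTCA, which contains the half-site, was found only in Syn1 among these genes, and in 1.79% of all promoters. A match describes the sequence and no more.

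Among the fusion genes, the calcium sensors Syt1 and Syt2 differed in opposite directions on the same arrays. Syt1, known as the main sensor of forebrain terminals, had log2 signals of 12.90, 12.87 and 12.40 in the HPYD group, of 12.93, 12.37 and 12.97 in the model group, and of 12.93, 12.93 and 12.98 in the control group. Syt2, known as the sensor of many terminals in the hindbrain and cerebellum, had signals of 8.60, 8.90 and 10.07 in the HPYD group, of 8.24, 10.24 and 8.52 in the model group, and of 8.13, 8.01 and 8.57 in the control group. Both HPYD 3 and Model 2 were the low arrays of their groups for Syt1 and the high ones for Syt2. For Syt2 their gap to the nearest array of the same group was 2.26-fold in HPYD 3 and 3.28-fold in Model 2. All HPYD arrays lay above all control arrays for Syt2, although HPYD 1 was above Control 3 by little, and the model arrays overlapped the control arrays.

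Vamp1 encodes a vesicle SNARE of the synaptobrevin family and is known to be prominent in the spinal cord and brainstem. It had signals of 11.45, 11.56 and 12.19 in the HPYD group, of 11.21, 12.04 and 11.26 in the model group, and of 11.00, 10.97 and 11.09 in the control group. Every HPYD array and every model array thus lay above every control array, and HPYD 3 and Model 2 were highest in their groups by 1.54-fold and 1.73-fold. It was the only synaptic gene with an unadjusted p under 0.05 in any comparison. The log2 fold change of HPYD against control was 0.71 (95% confidence interval 0.13 to 1.30), with an unadjusted p of 0.023 and an adjusted p of 0.860 from limma. Without Model 2 and HPYD 3 it was 0.49, with an adjusted p of 0.153 from limma.

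Stx1a encodes the plasma membrane SNARE syntaxin 1A and had the widest downward gap of the 30 genes. Its values, like those of Lrrtm1 below, are given by array because of that gap, which was seen first. Its signals were 9.68, 10.09 and 8.17 in the HPYD group, 9.95, 8.14 and 9.93 in the model group, and 9.72, 9.72 and 10.21 in the control group. HPYD 3 was 2.85-fold and Model 2 was 3.46-fold below the nearest array of its own group, while the other arrays of both groups lay within or just below the range of the control arrays. The log2 fold change was -0.57 for HPYD against control and -0.55 for model against control, each with a standard error of 0.60. Without Model 2 and HPYD 3 they were 0.0066 and 0.054.

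Snap25, the third SNARE of the complex on the plasma membrane, varied little, at 13.18 ± 0.09 (SD, n = 3 arrays) in the HPYD group, 13.20 ± 0.03 in the model group and 13.23 ± 0.05 in controls. The complexins Cplx1 and Cplx2, which clamp and promote fusion, differed from each other. Cplx1 had signals of 12.18, 12.15 and 12.28 in the HPYD group, of 12.09, 12.23 and 12.16 in the model group, and of 12.07, 12.17 and 12.22 in the control group, and HPYD 3 and Model 2 were the 2 highest by a narrow margin. Cplx2 had signals of 10.55, 10.58 and 10.27 in the HPYD group, of 10.55, 10.18 and 10.71 in the model group, and of 10.78, 10.61 and 10.98 in the control group. All HPYD arrays lay below all control arrays for Cplx2, and its log2 fold change of -0.32 against control had a 95% confidence interval of -0.68 to 0.04.

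**Figure D2:**
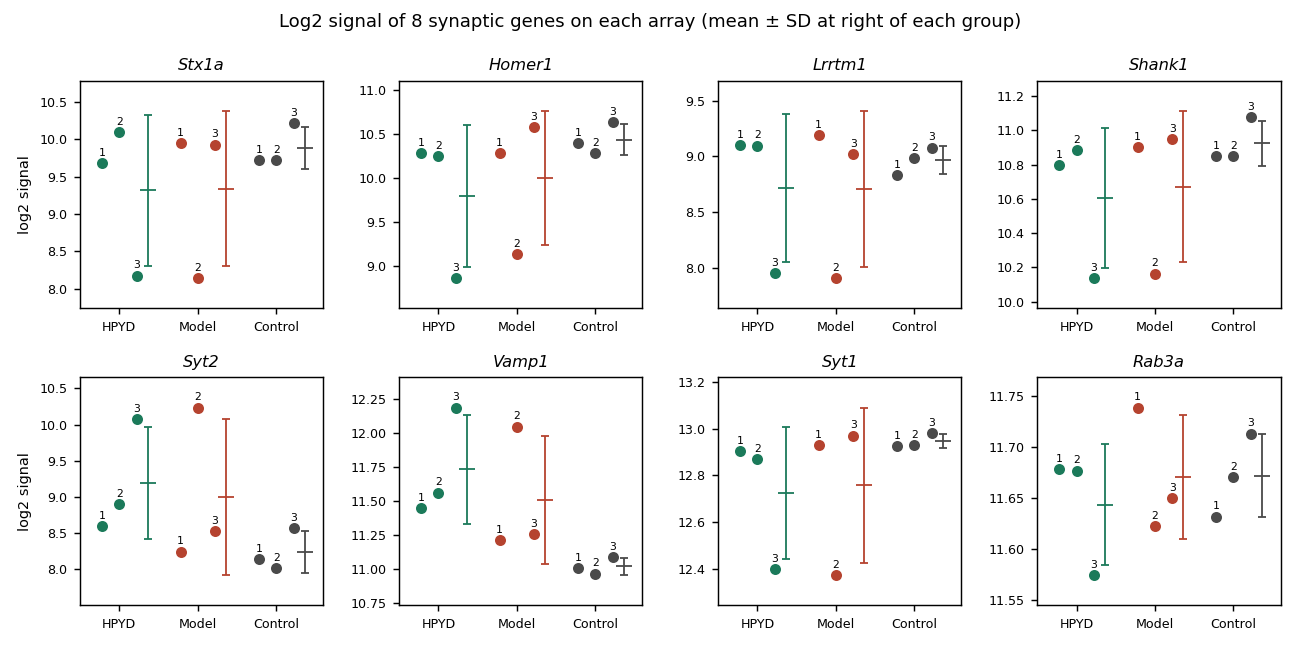
Log2 signal (vertical axis) of 8 synaptic genes on each array (points, numbered 1 to 3 within the group; HPYD, model, control), with the group mean ± SD beside the points. HPYD 3 and Model 2 lie apart from the other arrays, down to 8.17 and 8.14 in Stx1a and up to 10.07 and 10.24 in Syt2, while all 9 arrays of Rab3a lie between 11.57 and 11.74.

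The vesicle genes varied less. Rab3a, the small GTPase of the vesicle, had signals of 11.68, 11.68 and 11.57 in the HPYD group, of 11.74, 11.62 and 11.65 in the model group, and of 11.63, 11.67 and 11.71 in the control group, and the groups overlapped fully. Sv2a, a vesicle glycoprotein and the binding site of levetiracetam, was 11.97 ± 0.05 (SD, n = 3 arrays) in the HPYD group, 11.99 ± 0.06 in the model group and 12.01 ± 0.03 in controls. Its paralog Sv2b was 11.99 ± 0.14, 11.96 ± 0.40 and 12.15 ± 0.14 in the same groups, where Model 2 at 11.51 set the wide spread of the model group. The synapsins Syn1 and Syn2, which tether vesicles to the cytoskeleton, had similar spreads. Syn1 was 11.60 ± 0.22, 11.62 ± 0.29 and 11.86 ± 0.09, and Syn2 was 11.44 ± 0.22, 11.46 ± 0.29 and 11.60 ± 0.06, in the HPYD, model and control groups. All HPYD arrays of Syn1 lay below all control arrays, the nearest pair being HPYD 2 at 11.75 and Control 2 at 11.79. Syp, which encodes synaptophysin, a vesicle protein used as a marker of synapses, was 12.28 ± 0.09 in the HPYD group, 12.30 ± 0.16 in the model group and 12.38 ± 0.06 in controls, with overlap between all groups.

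At the active zone, the scaffold proteins bassoon (Bsn) and piccolo (Pclo), which are related and large, showed different spreads. Bsn was 9.65 ± 0.29 (SD, n = 3 arrays) in the HPYD group, 9.59 ± 0.42 in the model group and 9.92 ± 0.25 in controls, with 9.34 in HPYD 3 and 9.14 in Model 2 as its 2 lowest values. Pclo was 10.95 ± 0.02, 10.92 ± 0.04 and 11.02 ± 0.08 in these groups, without any array apart. Unc13a, which primes vesicles, was 10.41 ± 0.28, 10.50 ± 0.37 and 10.81 ± 0.17, and its values in HPYD 3 and Model 2 were both 10.10. Rims1, which links vesicles to calcium channels, was the active zone gene with higher means in both transgenic groups. It had signals of 10.36, 10.46 and 10.38 in the HPYD group, of 10.34, 10.38 and 10.53 in the model group, and of 10.23, 10.10 and 10.45 in the control group, and the groups overlapped through Control 3.

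Among the scaffold genes, 6 of 7 had Model 2 and HPYD 3 as their 2 lowest arrays. Homer1, which links glutamate receptors to calcium stores and whose short form is induced by activity, had signals of 10.28, 10.24 and 8.86 in the HPYD group, of 10.28, 9.14 and 10.58 in the model group, and of 10.39, 10.28 and 10.63 in the control group. The fold below the nearest array of the group was 2.61 in HPYD 3 and 2.20 in Model 2. The other 4 transgenic arrays ranged from 10.24 to 10.58 and overlapped the controls. The log2 fold change of HPYD against control was -0.64 with all arrays and -0.17 without Model 2 and HPYD 3.

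The Shank genes encode the scaffold that joins Homer to the receptor complex. Shank1 had signals of 10.80, 10.88 and 10.14 in the HPYD group, of 10.90, 10.16 and 10.95 in the model group, and of 10.85, 10.85 and 11.08 in the control group. Shank3, whose loss causes Phelan-McDermid syndrome in humans, had signals of 9.25, 9.22 and 8.81 in the HPYD group, of 9.10, 8.70 and 9.50 in the model group, and of 9.29, 9.30 and 9.51 in the control group. In both genes HPYD 3 and Model 2 were the 2 lowest arrays. For Shank3 every HPYD array was below every control array, by 0.04 between HPYD 1 at 9.25 and Control 1 at 9.29.

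Shank2 was the scaffold gene that did not share this order, and its 3 probe sets disagreed. The probe set used, which had the highest mean, gave 8.93, 9.01 and 9.03 in the HPYD group, 9.17, 8.86 and 9.23 in the model group, and 9.18, 9.11 and 9.39 in the control group. On it all HPYD arrays lay below all control arrays, with a log2 fold change of -0.24 and a 95% confidence interval of -0.49 to 0.02. The middle probe set gave 8.08, 8.35 and 9.21 in the HPYD group, 8.05, 8.90 and 7.87 in the model group, and 8.01, 8.30 and 7.96 in the control group. The dimmest one gave 7.16, 7.24 and 8.47 in the HPYD group, 7.13, 8.28 and 7.09 in the model group, and 7.22, 7.42 and 7.18 in the control group. On both of these HPYD 3 and Model 2 were the highest arrays, and the HPYD arrays were not all below the control arrays. The direction of Shank2 therefore depended on the probe set, and which transcripts each one reads was not examined.

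**Figure D3:**
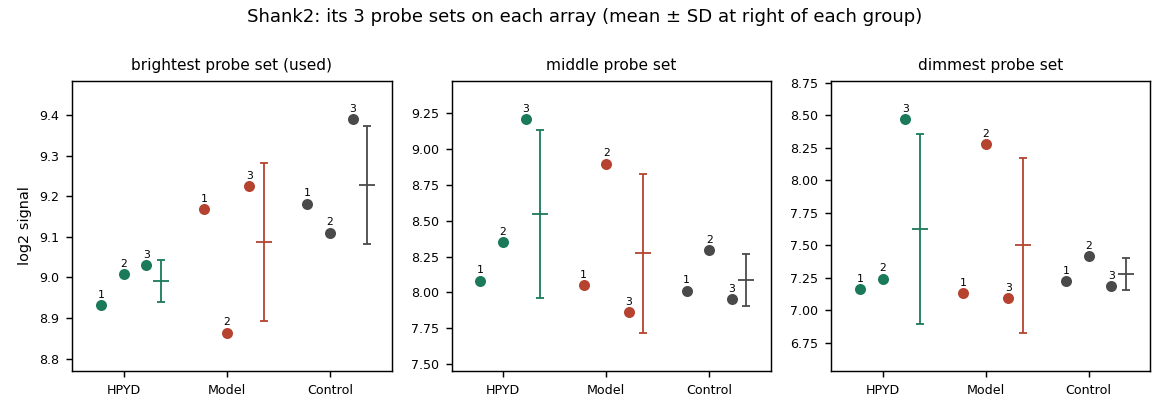
Log2 signal (vertical axis) of the 3 probe sets of Shank2 on each array (points, numbered 1 to 3; HPYD, model, control), with the group mean ± SD beside the points. HPYD 3 and Model 2 reach 9.21 and 8.90 on the middle probe set, above all other arrays, but 9.03 and 8.86 on the one used.

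Unc13a and Dlgap1 also had several probe sets. For Unc13a, a second probe set showed the same low arrays, at 8.05 in HPYD 3 and 8.25 in Model 2. Dlgap1, which binds the PSD-95 scaffold protein, had signals of 11.17, 11.36 and 10.90 in the HPYD group, of 11.41, 10.87 and 11.45 in the model group, and of 11.29, 11.25 and 11.57 in the control group on the probe set used. HPYD 3 and Model 2 were the 2 lowest there. On its other probe set HPYD 3 read 10.39, within the range of the other arrays. Model 2 was the lowest array there at 10.206, narrowly below HPYD 1 at 10.2085. Dlg4, which encodes PSD-95, was 11.64 ± 0.28 (SD, n = 3 arrays) in the HPYD group, 11.68 ± 0.31 in the model group and 11.87 ± 0.09 in controls, and it read 11.32 in both low arrays. Cask, a kinase-like scaffold that binds neurexin, had signals of 10.57, 10.45 and 10.35 in the HPYD group, of 10.43, 10.37 and 10.69 in the model group, and of 10.71, 10.64 and 10.65 in the control group. All HPYD arrays of Cask lay below all control arrays.

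Among the adhesion genes, Lrrtm1, a postsynaptic partner of neurexin, had signals of 9.10, 9.10 and 7.96 in the HPYD group, of 9.19, 7.91 and 9.02 in the model group, and of 8.83, 8.99 and 9.08 in the control group. HPYD 3 and Model 2 were 2.20-fold and 2.16-fold below the nearest array of their groups, while the other HPYD arrays and Model 1 were above every control array. Its log2 fold change of HPYD against control was -0.25 with all arrays and 0.13 without HPYD 3 and Model 2.

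The neuroligins are postsynaptic partners of neurexins, with Nlgn1 at excitatory and Nlgn2 at inhibitory synapses. Nlgn1 had signals of 10.37, 10.36 and 9.84 in the HPYD group, of 10.40, 9.95 and 10.40 in the model group, and of 10.45, 10.46 and 10.65 in the control group. It was the only gene of the 30 with every model array below every control array, and its HPYD arrays lay below the controls too. Nlgn2 had signals of 10.24, 10.29 and 10.12 in the HPYD group, of 10.17, 10.16 and 10.41 in the model group, and of 10.47, 10.28 and 10.54 in the control group. The groups overlapped through Control 2. Nlgn3 had signals of 10.91, 11.02 and 10.81 in the HPYD group, of 10.92, 10.60 and 10.98 in the model group, and of 11.08, 10.94 and 11.10 in the control group, again with overlap through Control 2.

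The neurexins are presynaptic, and neither of those measured had HPYD 3 and Model 2 as its 2 lowest arrays. Nrxn2 had signals of 10.61, 10.70 and 10.78 in the HPYD group, of 10.54, 10.58 and 10.70 in the model group, and of 10.85, 10.64 and 10.86 in the control group, and HPYD 3 was the highest of its group. Nrxn3 had signals of 11.04, 11.02 and 10.86 in the HPYD group, of 10.85, 10.87 and 11.09 in the model group, and of 11.12, 11.03 and 11.10 in the control group. For Nrxn3, HPYD 3 and Model 2 lay close to Model 1, the lowest array, and below all other arrays. The log2 fold change of model against control was -0.18 for Nrxn2, the smallest p among the 30 genes in that comparison (unadjusted p = 0.062, adjusted p = 0.859 from limma).

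For model against control, 26 of the 30 genes had a lower mean, beside 10955 of all 19938 genes. The median log2 fold change was -0.18, beside -0.012 over all genes. None of the 30 had an unadjusted p under 0.05 (2.87% of all genes did so with a higher and 2.05% with a lower mean). Only Vamp1 had all model arrays above all control arrays, a separation that 4.83% of all genes had, and Nlgn1 alone was separated the other way, as were 4.68% of all genes. Hence both counts lay at or below the level of the whole array. Without Model 2 and HPYD 3 the median log2 fold change was -0.017 and 12 of 30 genes had a higher mean. Without Model 3, 8 genes (26.7%) had a lower mean at an unadjusted p under 0.05, against 4.03% of all genes in that fit.

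For HPYD against model, by label the comparison of treated with untreated transgenic mice, the means were close. With HPYD 3, whose App, Cst7 and Xist levels went against its label, peptide, genotype and sex cannot be told apart here. The median log2 fold change was -0.019, beside 0.016 over all genes, with 10 genes higher and 20 lower. Of all 19938 genes, 11473 were higher and 8463 lower. No member had an unadjusted p under 0.05, against 1.22% of all genes in the upward and 0.752% in the downward direction. No member was separated between the groups in either direction, against 2.24% upward and 0.983% downward over all genes. The confidence intervals were nevertheless wide for genes in which 1 array of each group stood apart, such as Stx1a at -1.40 to 1.36 and Homer1 at -1.26 to 0.85. Without HPYD 3 the median log2 fold change was 0.077 and 25 genes were higher, and without Model 2 it was -0.16 and 6 were higher, so the direction depended on which of the 2 arrays was in the fit. Without both it was -0.047. Leaving out Model 3 or Model 1 also turned the direction, to 0.065 and 0.014.

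For HPYD against control, the median log2 fold change was -0.21, beside 0.012 over all genes. A lower mean was found for 26 of the 30 genes, beside 9118 of all 19938. Vamp1 was the only gene at an unadjusted p under 0.05 upward (2% of all genes) and none was so downward (1.24%). In 2 genes, Vamp1 and Syt2, all HPYD arrays lay above all control arrays, as in 4.78% of all genes. In 7 genes, Cask, Shank2, Cplx2, Nlgn1, Syn1, Shank3 and Syt1, all HPYD arrays lay below all control arrays. These were 23.3% of the 30 genes, against 4.74% of all genes. For each of them the exact two-sided permutation test gave p = 0.1, the smallest that 3 arrays against 3 allow. In this comparison sex and genotype cannot be told apart from the peptide, as given above. Without HPYD 3 the median log2 fold change was -0.079 and Vamp1 no longer had an unadjusted p under 0.05, which was so without Control 1 and without Control 2 as well. Without both HPYD 3 and Model 2, however, Vamp1 had an unadjusted p of 2.64e-04 and an adjusted p of 0.153 from limma. Without Control 3 the median was -0.13. The 2 comparisons of the transgenic groups with the control group share the control arrays, so that their medians of -0.18 and -0.21 are not independent.

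**Figure D4:**
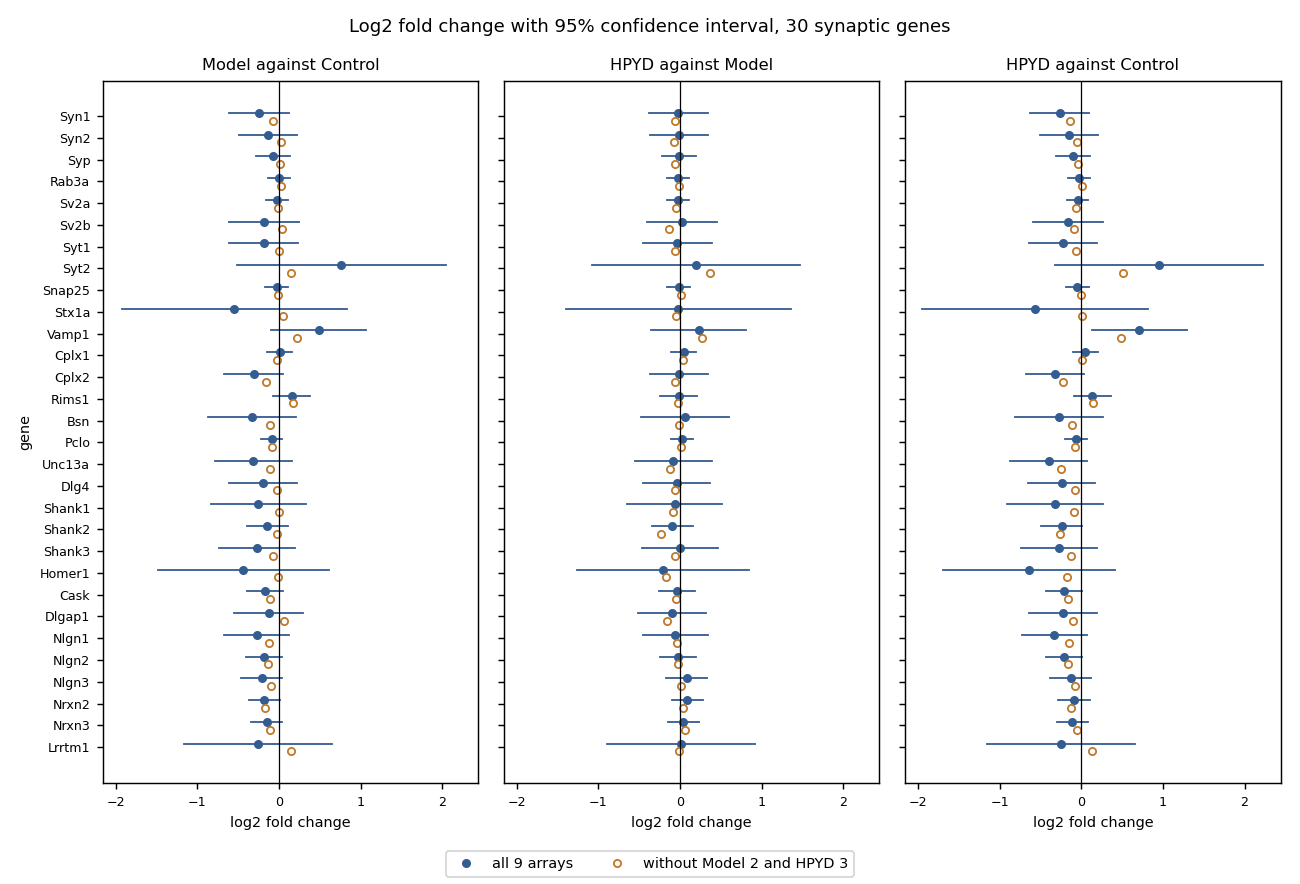
Log2 fold change (horizontal axis) of 30 synaptic genes (rows) in the 3 comparisons of the groups. Filled points with lines are estimates and 95% confidence intervals from all 9 arrays, and open points are estimates without Model 2 and HPYD 3; of all intervals only that of Vamp1 for HPYD against control, 0.13 to 1.30, leaves out 0.

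The synaptic genes were set beside markers of brain regions and other tissues on each array. The mean log2 level of 10 markers of cerebellar granule cells was 7.69, 8.57 and 10.55 in HPYD 1, 2 and 3, 8.30, 10.52 and 8.33 in Model 1, 2 and 3, and 7.66, 7.81 and 7.80 in Control 1, 2 and 3. All 10 markers were above the control mean in HPYD 3 and in Model 2. Gabra6, the receptor subunit that defines these cells, had signals of 4.54, 8.20 and 11.29 on the HPYD arrays, of 7.51, 11.35 and 7.81 on the model arrays, and of 5.23, 4.85 and 6.14 on the control arrays. On these same arrays 13 markers of cortical and hippocampal excitatory neurons were low, with a mean level of 9.73, 9.88 and 8.89 in the HPYD group, of 9.93, 8.87 and 10.03 in the model group, and of 9.75, 9.78 and 10.05 in the control group. Of the 13, 11 were below the control mean in HPYD 3 and 11 in Model 2. The low and high arrays of the synaptic genes were thus the arrays with the most cerebellar and the least cortical marker signal.

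Markers of other lists also stood apart on HPYD 3 and Model 2. The 5 microglia markers had mean levels of 8.45, 8.47 and 7.69 in the HPYD group, of 8.44, 7.88 and 8.56 in the model group, and of 8.25 to 8.44 in the control group, and all 5 were below the control mean on HPYD 3 and on Model 2. The 8 markers of hindbrain and spinal cord had mean levels of 6.75, 7.14 and 7.69 in the HPYD group, of 6.81, 8.42 and 6.60 in the model group, and of 6.32 to 6.74 in the control group, and 6 of them on HPYD 3 and 8 on Model 2 were above the control mean. The 6 astrocyte markers had a median difference from the control mean of 0.23 in HPYD 3 and 0.25 in Model 2. The next highest array was HPYD 1 at 0.12. In the mean level of these markers, however, HPYD 2 at 10.855 lay above HPYD 3 at 10.837. Gfap, which is among them, was lowest of its group in HPYD 3 (9.65) and in Model 2 (10.07). The part of these cells in the synaptic values was not tested.

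The striatal, muscle and granulocyte lists divided the arrays in other ways. The mean level of the list for neurons in general did not set HPYD 3 and Model 2 apart, but single markers did. These arrays were the 2 highest for Nefl, Nefm and Stmn2 and the 2 lowest for Map2, and neither for the other markers of that list. For 9 markers of neurons in general, the arrays had mean levels of 11.16 to 11.26 in the HPYD group, 11.13 to 11.20 in the model group and 11.13 to 11.26 in the control group. Striatal neuron markers, of which 7 were measured, averaged 10.42, 8.90 and 9.15 in the HPYD group, 9.01, 8.93 and 10.42 in the model group, and 10.31 to 10.67 in the control group, so that HPYD 2 and Model 1 were low there as well. Skeletal muscle markers, of which 24 were measured, averaged 6.28, 7.22 and 6.41 in the HPYD group, 8.54, 9.99 and 6.34 in the model group, and 6.22 to 6.35 in the control group. Granulocyte markers, of which 14 were measured, averaged 5.77, 8.92 and 6.37 in the HPYD group and 9.53, 9.86 and 5.68 in the model group. In the control group they averaged 6.36 to 6.64. Model 1, Model 2 and HPYD 2 were thus the highest arrays for both lists, and a fit without these arrays is given below. With the level of the cerebellar granule cell markers as a covariate, a fit added after the values were seen, the median log2 fold change of the synaptic genes was 0.021 in the comparison of model with control, -0.052 in that of HPYD with model and -0.016 in that of HPYD with control. With the skeletal muscle level as the covariate instead, these medians were 0.034, -0.20 and -0.16. The brain region dissected is not given by array, and in whole tissue fewer cells of a type and less RNA per cell cannot be told apart.

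**Figure D5:**
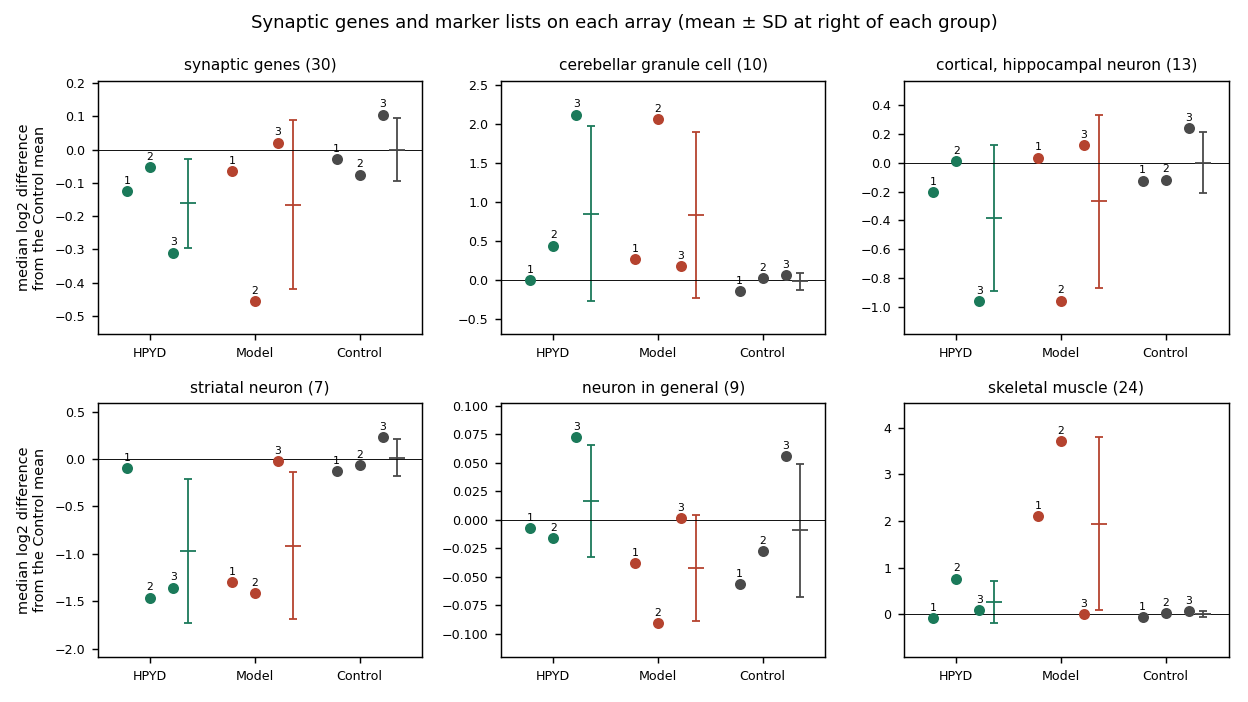
Median difference in log2 signal relative to the control mean (vertical axis, scaled for each panel) of the 30 synaptic genes and of 5 lists of cell type markers on each array (points, numbered 1 to 3; HPYD, model, control), with the group mean ± SD beside the points. HPYD 3 and Model 2 are lowest for the synaptic genes (-0.31 and -0.45) and for cortical and hippocampal neurons (-0.96 and -0.96) and highest for cerebellar granule cells (2.13 and 2.07).

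Other genes of the synapse, from a list of 97 of which 89 were measured, had the same division. Model 2 and HPYD 3 were the 2 lowest arrays for 57 of the 89, against 14.1% of all genes. They were the 2 highest for 16 of the 89, against 14.2% of all genes. Among the 16 were Unc13c and Cbln1, which are known from cerebellar granule cells, and Homer3, which is known from Purkinje cells. The others of the 16 were Sv2c, Syt9, Syt12, Rph3a, Slc32a1, Rims2, Erc1, Ppfia4, Lin7a, Gphn, Ptprd, Cadm3 and Tenm1. None of the 89 passed an adjusted p of 0.05. For model against control, 3 of the 89 had a lower and 0 a higher mean at an unadjusted p under 0.05, beside 2.05% and 2.87% of all genes, and the smallest p values were those of Ptprf (log2 fold change -0.31) and Lrfn1 (-0.25) downward and Sh3gl2 (0.15) and Unc13c (0.56) upward. For HPYD against model none had an unadjusted p under 0.05, and the smallest p values were those of Syn3 (0.17) and Ptprf (0.23) upward and Slitrk1 (-0.12) and Sh3gl2 (-0.09) downward. For HPYD against control 3 had a lower and 0 a higher mean at that p, beside 1.24% and 2% of all genes, with the smallest p values for Slitrk4 (-0.29) and Lrfn1 (-0.25) downward and Unc13c (0.79) and Syn3 (0.16) upward. Unc13c, a priming factor, had signals of 10.08, 9.75 and 10.78 in the HPYD group, of 9.41, 10.81 and 9.70 in the model group, and of 9.51, 9.42 and 9.31 in the control group.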

How the data were processed

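Brain RNA of 9 samples was measured on Mouse Gene 1.0 ST arrays, and groups were taken from the sample labels. The authors deposited 1 table of log2 values for 35556 probe sets. MAS5, with no version, is named in the submitters' processing notes, and the normalization was not given in the sources used here. The paper describes extraction with the RNeasy kit and labelled cDNA, whereas the labels name Trizol and biotinylated cRNA.

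No further normalization was applied. Fits were run with limma 3.58.1 in R 4.3.3. In the gene table of the platform 21789 probe sets have 1 symbol, 1621 several and 12146 none, and only the first were used. Through Entrez identifiers 21698 probe sets were matched to RefSeq genes of GRCm38.p6, and 0 symbols changed. Where a gene had several probe sets (999 genes), only that with the highest mean entered, which left 19938 genes. The number of columns not used was 0, and no arrays had identical values. All 3 groups entered a single fit with no covariate (6 residual and 2.13 prior degrees of freedom), and the fit was tested on simulated data. Single genes were also compared with exact permutation tests. The number of arrays limits the precision.

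The synaptic genes, the other lists and the tests were chosen with earlier results of these data known. Values on every array are given for the Syt, Vamp, Cplx, Shank, Nlgn and Nrxn paralogs and, in each direction of each comparison, for the 4 genes of smallest p, and the rest by mean. Of the other synaptic genes, the 2 with the smallest p in each direction are named. The fits were repeated with the arrays shifted or quantile normalized, without dim genes, with a trended and robust variance, with array weights, with the replicate number as a block, with the mean over probe sets, with the muscle marker level as a covariate, on subsets of arrays, and with the analysis of variance that the paper's statistics section names. The fit without Model 2 and HPYD 3 and the one with cerebellar markers as a covariate were added after seeing the data.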

Additional observations from a re-analysis of the deposited data

How the results depend on the processing

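No synaptic gene passed an adjusted p of 0.05 in any of the 23 alternative settings, and Vamp1, the only one with an unadjusted p under 0.05 with all arrays, kept its sign for HPYD against control in all of them. Shares in parentheses are of the 30 genes against all genes of the same fit, both directions together unless stated. For HPYD against control the count at an unadjusted p under 0.05, which was 1, became 2 with arrays shifted to a common median, with arrays shifted by the neuron markers and with the muscle covariate, 4 with array weights (13.3% against 6.9%), 6 with only the 2 groups (20% against 4.44%), 5 without Model 1, Model 2 and HPYD 2 (16.7% against 5.09%), 3 without Model 2 and HPYD 3 (10% against 3.82%), and 0 in an analysis of variance followed by Student-Newman-Keuls. With the replicate block it became 2. The replicate numbers do not pair the samples, since deviations of same-numbered arrays correlated between -0.32 and 0.18. Leaving out single arrays gave 0 to 7, with 7 without Model 2 (23.3% against 5.43%) and 0 without HPYD 3 or without Control 1. The median log2 fold change was -0.016 with the cerebellar covariate and -0.11 with array weights.

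For model against control the count, which was 0, became 1 with the common median, the neuron shift, the cerebellar covariate or without Model 2 and HPYD 3, and 2 with array weights. With the cerebellar covariate the gene was Lrrtm1, at a log2 fold change of 0.45, against -0.26 without a covariate, where it had no unadjusted p under 0.05. Leaving out single arrays gave 0 to 8, with 8 without Model 3, 2 without Control 2 and 1 without Control 3. The 8 were all lower (26.7% against 4.03% of all genes called downward). The median was 0.034 with the muscle covariate, 0.021 without Model 1, Model 2 and HPYD 2, 0.021 with the cerebellar covariate and -0.058 with array weights. For HPYD against model the count, which was 0, became 1 without Model 2 and HPYD 3 and 2 with the cerebellar covariate, and leaving out single arrays gave 0 to 1, with 1 without Model 2. The median was -0.20 with the muscle covariate and -0.24 without Model 1, Model 2 and HPYD 2. It turned to 0.0057 with quantile normalization (18 of 30 genes higher) and to 0.0016 with the neuron shift (17 of 30), and was -0.062 with array weights. The causes of these shifts were not tested. Of 660 fold changes of single genes per comparison, the sign differed in 85 between model and control, in 98 between HPYD and model and in 23 between HPYD and control. Groups of 3 arrays limit what could be called.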
